A study of Homo sapiens with 30 samples.

Results

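The interferon response genes are a set of 37 human genes whose transcripts are known to rise when a cell receives an interferon signal. They were followed through all 10 groups of a study of nanoparticles on a model of the gut lining. The probe sets of the members were matched by exact gene symbol, with no use of the measured values. The set itself was chosen with earlier results of these data known. Probe sets carrying such a symbol alone measured 36 of the 37 genes through 48 of the 22215 tested probe sets, and 9 genes had more than 1 probe set. STAT2 was not analysed here.

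Interferons are secreted by cells that sense viral nucleic acid, and they act on neighbouring cells through cell surface receptors. Type I and type III interferons act through a complex with STAT2 and IRF9 that binds interferon-stimulated response elements (ISRE), whereas interferon gamma acts mainly through gamma-activated sites (GAS). In the gut epithelium the type III interferons are known as a main antiviral signal, and the induced proteins block entry, replication and spread of viruses or raise antigen presentation.

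The cells were a co-culture of Caco-2, a human colorectal adenocarcinoma line that forms an enterocyte-like layer, and HT29-MTX, a mucus-secreting line derived from colon adenocarcinoma cells by methotrexate selection, mixed at 75% and 25%. All 10 groups shared this mixture and 14 days of growth on Transwell inserts. Exposed wells then received multi-walled carbon nanotubes (MWCNT) or titanium dioxide nanobelts (TiO2-NB) on the apical side at 10 or 100 µg/ml for 1 or 24 h, and the control wells of each time received fresh medium only. Each group had 3 arrays. The labels call these biological replicates but describe pooled flasks before seeding, so p-values measure the spread between such wells, which may be partly technical. Both lines are cancer lines, and the culture is described with no immune cells.

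Many interferon response genes are known to carry an ISRE or a GAS near their start. RefSeq promoter windows (GRCh38.p14, 300 bases, from 250 before to 50 after the transcript start) existed for 28 of the 37 members. The ISRE core was searched as GAAANNGAAA and, on the other strand, TTTCNNTTTC, and the GAS as TTCNNNGAA, which reads the same on both strands. The ISRE core was in 18 of the 28 members (64.3%) against 4.38% of 27305 genes with a window. The GAS was in 11 of the 28 (39.3%) against 9.38% of genes. IFIT1 and ISG15 are shown for the ISRE core, and OAS1 and IRF1 for the GAS, with the matching letters in capitals. IFIT1, OAS1 and IRF1 are members called in at least 1 exposure, and ISG15 is a member called in none.
IFIT1, ISRE core, chr10:89392373-89392672, plus strand: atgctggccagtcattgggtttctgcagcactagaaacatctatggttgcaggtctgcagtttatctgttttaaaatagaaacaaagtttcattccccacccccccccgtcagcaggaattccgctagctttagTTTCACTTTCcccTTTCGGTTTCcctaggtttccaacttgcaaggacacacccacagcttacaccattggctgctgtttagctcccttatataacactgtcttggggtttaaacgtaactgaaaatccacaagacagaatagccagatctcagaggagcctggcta
ISG15, ISRE core, chr1:1013247-1013546, plus strand: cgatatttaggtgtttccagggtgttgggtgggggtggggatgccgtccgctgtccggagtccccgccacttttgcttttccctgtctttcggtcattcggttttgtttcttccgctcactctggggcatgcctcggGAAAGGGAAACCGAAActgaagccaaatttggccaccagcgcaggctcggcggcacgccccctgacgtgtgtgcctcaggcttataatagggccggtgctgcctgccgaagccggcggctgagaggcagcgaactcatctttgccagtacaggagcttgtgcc
OAS1, GAS, chr12:112906712-112907011, plus strand: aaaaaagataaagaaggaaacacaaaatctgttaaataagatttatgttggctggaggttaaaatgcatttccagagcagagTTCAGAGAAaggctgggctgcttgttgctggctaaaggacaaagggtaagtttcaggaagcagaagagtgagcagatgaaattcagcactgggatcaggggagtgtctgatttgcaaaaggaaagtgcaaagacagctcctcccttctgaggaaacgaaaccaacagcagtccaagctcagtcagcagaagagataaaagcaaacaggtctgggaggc
IRF1, GAS, chr5:132490724-132491023, minus strand: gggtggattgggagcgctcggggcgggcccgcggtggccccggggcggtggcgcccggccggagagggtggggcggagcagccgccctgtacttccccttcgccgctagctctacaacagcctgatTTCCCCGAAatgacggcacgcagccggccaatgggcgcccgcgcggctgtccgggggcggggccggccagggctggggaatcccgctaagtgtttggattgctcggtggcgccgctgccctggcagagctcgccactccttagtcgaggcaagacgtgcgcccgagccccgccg
In IFIT1 the 2 matches ran from -116 to -107 and from -103 to -94 relative to the start. In ISG15 the 2 matches, from -113 to -104 and from -107 to -98, overlap each other. In OAS1 the GAS match ran from -168 to -160, and the letters of the ISRE core as searched were not in its window. The window does hold gaaacgaaa, with 1 base between the repeats where the search asked for 2. In IRF1 the GAS match ran from -124 to -116. None of these matches overlaps a match of the other motif. A match describes the letters only.

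Some markers of both lines had high levels, and others were much lower. The enterocyte genes APOA1 and FABP1 had mean log2 levels of 14.1 and 13.8 over the 30 arrays, and FABP2 had 5.39. The mucus-associated genes AGR2 and TFF1 had 13.1 and 12.8. The mucins were lower, with MUC5AC at 5.15 to 6.72 over its probe sets, MUC5B at 4.10 and 5.67 and MUC2 at 6.07. Of the leukocyte markers, CD14 had the highest mean level (6.90), and PTPRC had 2.61 to 3.63 over its 3 probe sets. The log2 of the summed level of the 21 leukocyte probe sets lay between 9.27 and 9.47 on all arrays. Of these 21 probe sets, 1 or 2 rose and at most 1 fell in each 1 h exposure. Of the plasmacytoid dendritic cell markers, 3 of 4 genes were measured by 9 probe sets (TCF4, IL3RA and LILRA4, at mean levels between 3.45 and 6.14). Their median change at 1 h was -0.18, -0.067, -0.20 and -0.13 for MWCNT at 10 and 100 and TiO2-NB at 10 and 100 µg/ml, and 0.054, 0.082, -0.035 and -0.0080 at 24 h. Over these 9 probe sets the mean level of an array was 4.80 to 4.94 in the 1 h control and, in the same order, 4.68 to 4.78, 4.73 to 4.77, 4.71 to 4.78 and 4.68 to 4.88, below control in the first 3 and overlapping it in the last. At 24 h it was 4.73 to 4.90 in control and 4.73 to 4.89 in the exposed groups. The 1 call among them against control was a fall of TCF4, a transcription factor, at 100 µg/ml MWCNT and 1 h, and the part of these markers in the members' changes was not tested. The 5 interferon genes measured (IFNA1, IFNA2, IFNB1, IFNG and IFNW1) had mean levels between 2.89 and 4.88, and 0 of them was called against control in any of the 8 exposures by limma. None of them is a type III interferon. The type III gene IFNL1 and the receptor gene IFNLR1 were looked for and not measured. Array medians were 6.45 to 6.49, and arrays of a group correlated at 0.997 to 0.999. The probe set for the 5' part of 18S ribosomal RNA was above control by 1.17, 1.51, 0.84 and 0.80 on the log2 scale at 1 h for MWCNT at 10 and 100 µg/ml and TiO2-NB at 10 and 100 µg/ml. At 24 h it was above control by 0.059 to 0.40.

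Within 1 h of exposure, few interferon response genes changed, and most of those that passed the test fell. Against the 1 h control, 4 of 48 member probe sets were called at 10 µg/ml MWCNT (8.33%), where 6.46% of all probe sets were called. At 100 µg/ml MWCNT 4 were called (8.33%) against 7.78% of all. At 10 µg/ml TiO2-NB 6 were called (12.5%) against 7.84%, and at 100 µg/ml TiO2-NB 4 were called (8.33%) against 8.43%. A call is an adjusted p under 0.05 over all probe sets. These shares lie near the background, so the set as a whole was called about as often as other probe sets, with the highest excess at the low TiO2-NB dose. By direction, the called members were 0 up and 4 down, 1 up and 3 down, 0 up and 6 down, and 2 up and 2 down. Over all probe sets 2.56% rose and 3.9% fell, 3.51% rose and 4.27% fell, 2.61% rose and 5.24% fell, and 2.65% rose and 5.78% fell. The 4 exposures share the same 3 control arrays.

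**Figure D1:**
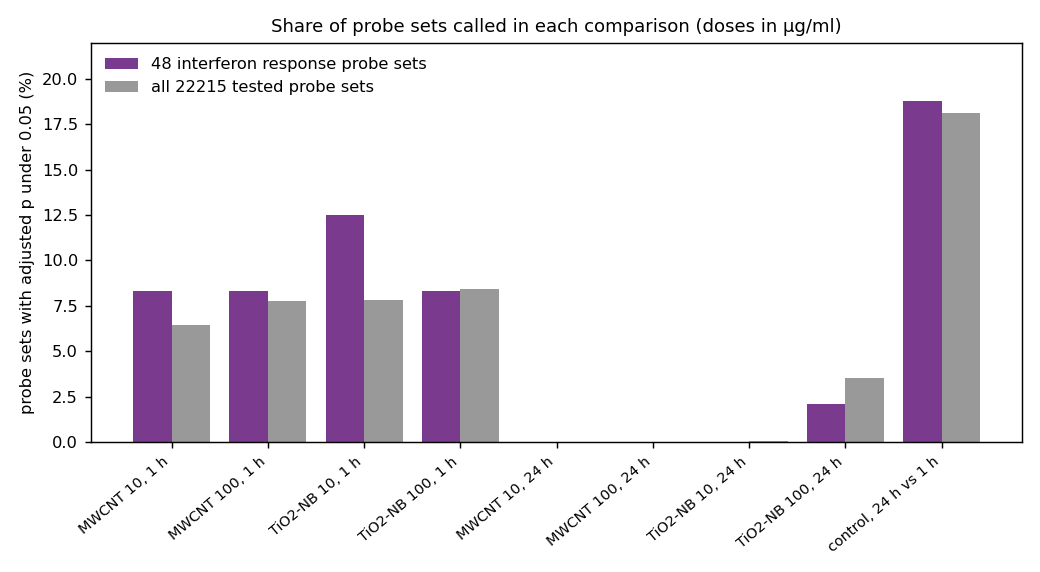
Share of probe sets with an adjusted p under 0.05 (vertical axis, percent) in the 8 exposures against control and in the 24 h against the 1 h control. Purple bars are the 48 interferon response probe sets and grey bars all 22215 tested probe sets; the 2 shares lie close in the comparisons at 1 h (8.33% to 12.5% against 6.46% to 8.43%) and are near 0 for most at 24 h.

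The calls at 1 h leaned on single arrays. Without replicate 2 of the 1 h control the counts were 0, 2, 1 and 1 in place of 4, 4, 6 and 4. For 10 µg/ml MWCNT the count was also 0 without replicate 1 of the exposed group. For 10 µg/ml TiO2-NB it was 3 without control replicate 3, 3 without exposed replicate 1 and 2 without exposed replicate 3, and for 100 µg/ml TiO2-NB it was 2 without control replicate 3 and 2 without exposed replicate 2. With each array's 18S level in the model the counts were 0, 1, 4 and 1. Fitted on the 2 compared groups alone, the count was 0 in each of the 4 comparisons, where all probe sets together gave 84, 112, 219 and 269 calls. The unadjusted p was under 0.05 for 16, 12, 11 and 10 of the 48.

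The medians at 1 h were below 0 for MWCNT. The median change of the 48 probe sets was -0.088 and -0.071 on the log2 scale at 10 and 100 µg/ml MWCNT, where the medians of all probe sets were -0.012 and -0.0081. For TiO2-NB it was -0.048 and 0.0039, against 0.0051 and 0.0015. At 10 µg/ml MWCNT 37 of 48 changes were negative, and 15 of 48 had all 3 exposed arrays below all 3 controls, which held for 13.5% of all probe sets, while 2 had all 3 above, which held for 9.87%. At 100 µg/ml MWCNT 37 were negative, with 10 wholly below (11.4% of all probe sets) and 2 wholly above (9.91%). At 10 µg/ml TiO2-NB 30 were negative, with 11 wholly below (12.3%) and 1 wholly above (10.1%), and at 100 µg/ml TiO2-NB 23 were negative, with 5 wholly below (13.7%) and 4 wholly above (9.94%).

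**Figure D2:**
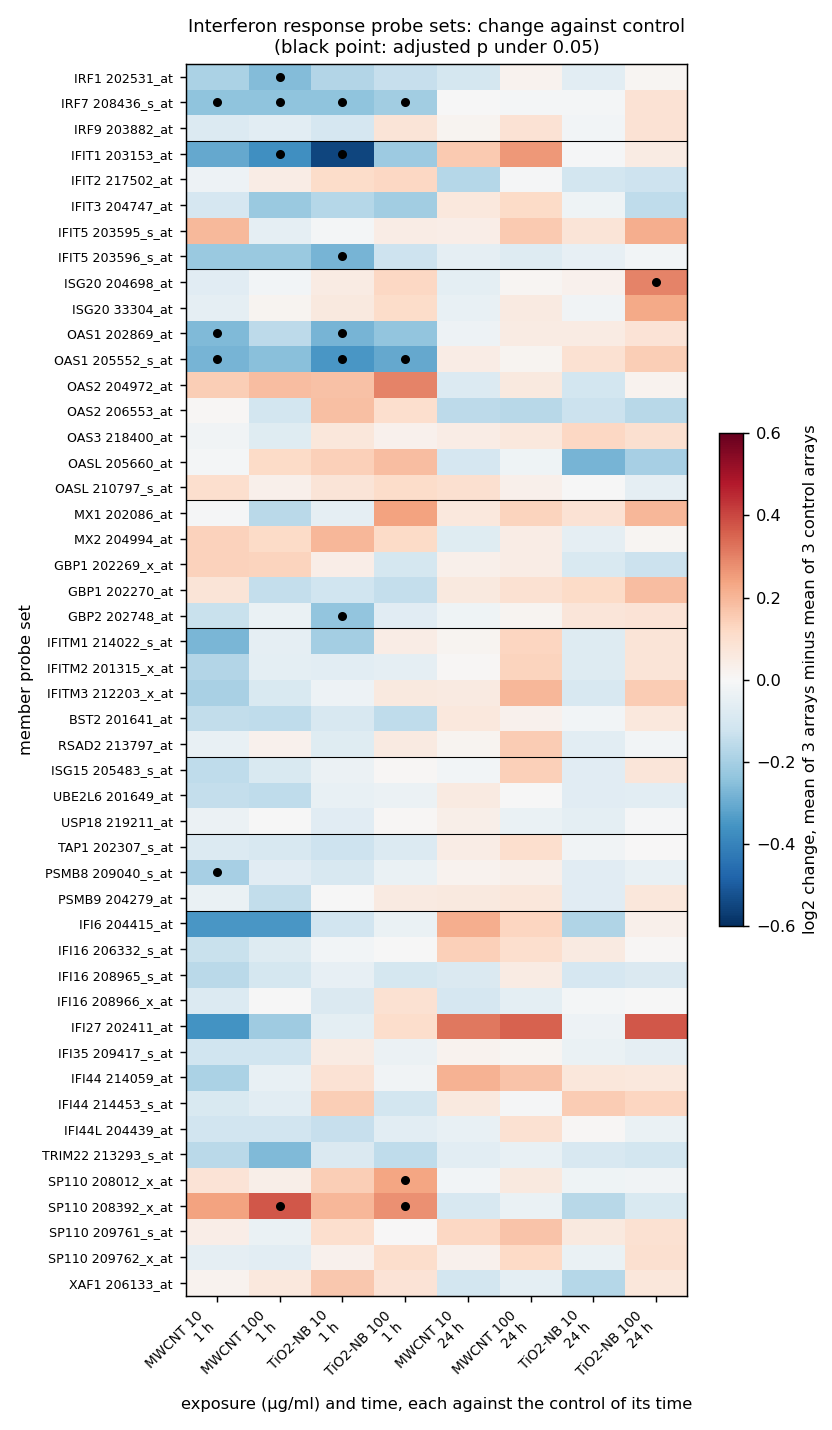
Log2 change of each of the 48 interferon response probe sets (rows, grouped by role) against the control of its time, for the 8 exposures (columns; doses in µg/ml), as the mean of 3 arrays minus the mean of 3 control arrays. Black points mark an adjusted p under 0.05: 18 at 1 h, of which 15 fell, and 1 at 24 h, for ISG20. The points at 1 h are not independent, since the 4 exposures share 3 control arrays. IRF7 gave 4 of the falls and the OAS1 probe sets 2 and 3. Over all probe sets, too, more fell than rose in each exposure at 1 h.

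Among the transcription factors, IRF7, the factor that amplifies type I interferon production, was the member called in all 4 exposures at 1 h. Its level was 8.04, 8.24 and 8.06 on the 3 control arrays and 7.80, 7.88 and 7.93 at 10 µg/ml MWCNT. It was 7.92, 7.83 and 7.87 at 100 µg/ml MWCNT, 7.90, 7.88 and 7.83 at 10 µg/ml TiO2-NB, and 7.92, 7.91 and 7.90 at 100 µg/ml TiO2-NB. All 12 exposed arrays lay below all 3 controls, and control replicate 2 was the highest of these 15 arrays. IRF7 fell by 0.24 ± 0.055 (SE, n = 3 arrays per group; adjusted p = 0.00764), by 0.24 ± 0.055 (adjusted p = 0.00711), by 0.24 ± 0.055 (adjusted p = 0.00603) and by 0.21 ± 0.055 (adjusted p = 0.0179), a change of 1.15 to 1.18-fold. Without control replicate 2 the changes were -0.18, -0.18, -0.18 and -0.14, and the adjusted p were 0.0712, 0.056, 0.0635 and 0.134. The calls also ended on the 2 compared groups alone in all 4 exposures, and with the 18S level in the model in 3, all but 10 µg/ml TiO2-NB. That at 10 µg/ml MWCNT ended without exposed replicate 1 and that at 100 µg/ml TiO2-NB without exposed replicates 2 or 3. Over all alternatives of the 4 calls the adjusted p lay between 0.00289 and 0.184. At 24 h the IRF7 changes were between -0.013 and 0.085, and none was called.

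IRF1, the factor induced early by interferon gamma whose promoter is shown above, was called as lower at 1 h in 1 of the 4 exposures. Its controls had 7.19, 7.31 and 7.27 and the arrays at 100 µg/ml MWCNT had 6.97, 6.94 and 7.08. The groups did not overlap, and the fall was by 0.26 ± 0.061 (adjusted p = 0.00904). This call held without each of the 6 arrays in turn and ended on the 2 compared groups alone (adjusted p = 0.127). In the other exposures the mean of IRF1 was also below the control mean of 7.26, with no call. It was 7.07 at 10 µg/ml MWCNT and 7.08 and 7.12 at 10 and 100 µg/ml TiO2-NB. The arrays at 10 µg/ml MWCNT (7.07, 7.05 and 7.08) lay below all controls, and both TiO2-NB groups overlapped them. IRF9, the DNA-binding part of the complex that holds STAT2, was not called in any of the 8 exposures.

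IFIT1, which binds viral RNA by its 5' end and has the 2 ISRE cores shown above, had the largest fall among the members. Its control arrays had 7.45, 7.65 and 7.77. The arrays at 10 µg/ml TiO2-NB had 7.05, 7.21 and 6.96, those at 100 µg/ml MWCNT 7.19, 7.27 and 7.31, those at 10 µg/ml MWCNT 7.08, 7.36 and 7.51, and those at 100 µg/ml TiO2-NB 7.15, 7.46 and 7.61. The first pair of groups lay wholly below control and the second pair overlapped it. IFIT1 fell by 0.55 ± 0.11 at 10 µg/ml TiO2-NB (adjusted p = 0.00173), a 1.46-fold change, and with 100 µg/ml MWCNT it fell by 0.37 ± 0.11 (adjusted p = 0.0348). The first call held without each array in turn, and its adjusted p was 0.0501 on the compared groups alone. The second ended without any of the 3 exposed arrays, control replicate 2 (adjusted p = 0.0897) or control replicate 3, with adjusted p between 0.0191 and 0.156 over 14 alternatives.

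The other members of the IFIT family, which share a helical repeat fold, moved less or unevenly. IFIT5 fell at 10 µg/ml TiO2-NB through probe set 203596_s_at by 0.28 ± 0.082 (adjusted p = 0.0376), from 5.88, 5.88 and 6.07 in control to 5.63, 5.77 and 5.60, with no overlap. The other IFIT5 probe set, 203595_s_at, had 6.35, 6.37 and 6.70 in control and 6.52, 6.47 and 6.39 in that group. The 2 probe sets had the same sign in 2 of the 8 exposures and differed by up to 0.417, so the direction of IFIT5 is uncertain. The call on 203596_s_at ended without control replicate 2 (adjusted p = 0.058) and without control replicate 3 or exposed replicates 1 or 3. IFIT2 and IFIT3 were not called in any exposure.

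OAS1, which makes the oligoadenylates that activate RNase L and whose promoter holds the GAS shown above, was called as lower in 3 of the 4 exposures at 1 h. Probe set 205552_s_at had 8.52, 8.71 and 8.49 in control and 8.11, 8.38 and 8.40 at 10 µg/ml MWCNT. It had 8.30, 8.24 and 8.15 at 10 µg/ml TiO2-NB and 8.33, 8.23 and 8.25 at 100 µg/ml TiO2-NB, and 8.32, 8.35 and 8.30 at 100 µg/ml MWCNT. All 12 exposed arrays lay below the 3 controls, and control replicate 2 was the highest. OAS1 fell by 0.28 ± 0.083 (adjusted p = 0.0463), by 0.35 ± 0.083 (adjusted p = 0.00971) and by 0.31 ± 0.083 (adjusted p = 0.0202) in the first 3 of these groups. Without control replicate 2 the changes were -0.21, -0.28 and -0.24, with adjusted p of 0.225, 0.0756 and 0.119. The call at 10 µg/ml MWCNT also ended without control replicate 1 or exposed replicate 1, that at 10 µg/ml TiO2-NB without exposed replicate 3, and that at 100 µg/ml TiO2-NB without exposed replicates 2 or 3. The second OAS1 probe set, 202869_at, fell at 10 µg/ml of MWCNT by 0.26 ± 0.077 (adjusted p = 0.0401) and of TiO2-NB by 0.28 ± 0.077 (adjusted p = 0.0247). These 2 calls ended without control replicates 2 or 3 too, among other arrays. The 2 probe sets shared their sign in 7 of 8 exposures. OAS2, OAS3 and OASL, the other members of this enzyme family, and ISG20 were not called at 1 h.

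PSMB8, a catalytic subunit of the immunoproteasome, fell at 10 µg/ml MWCNT from 7.73, 7.75 and 7.77 to 7.41, 7.58 and 7.67. The groups did not overlap, and the fall was by 0.20 ± 0.049 (adjusted p = 0.0153), which ended without exposed replicate 1 and, at an adjusted p of 0.0501, without control replicate 2. PSMB9, the partner subunit, and TAP1, which carries peptides into the endoplasmic reticulum, were not called. GBP2, a guanylate-binding GTPase, fell at 10 µg/ml TiO2-NB from 8.0, 8.23 and 8.21 to 7.93, 7.98 and 7.83. This fall was by 0.24 ± 0.072 (adjusted p = 0.0439), and the call ended in 9 of 14 alternatives, among them the omission of control replicate 2 (adjusted p = 0.188). MX1, MX2 and GBP1, the other GTPases, were not called.

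SP110, a nuclear body protein, was the member that rose. Probe set 208392_x_at had 5.79, 5.36 and 5.62 in control, 6.06, 5.96 and 5.86 at 100 µg/ml MWCNT and 5.94, 5.74 and 5.90 at 100 µg/ml TiO2-NB. The MWCNT arrays lay above all controls, and the TiO2-NB arrays overlapped them. It rose by 0.37 ± 0.083 (adjusted p = 0.00599) and by 0.27 ± 0.083 (adjusted p = 0.0404). Probe set 208012_x_at rose at 100 µg/ml TiO2-NB from 6.95, 6.95 and 6.83 to 7.17, 7.13 and 7.15, by 0.24 ± 0.057 (adjusted p = 0.00979). The call of 208392_x_at for MWCNT ended on the compared groups alone and with the 18S level in the model, with adjusted p up to 0.174. Without control replicate 2 this rise was 0.26 (adjusted p = 0.0492). The call of 208392_x_at for TiO2-NB ended in 8 of 13 alternatives, among them the omission of control replicate 2 (adjusted p = 0.258). That of 208012_x_at ended without control replicate 3 and on the compared groups alone. The other SP110 probe sets, 209761_s_at and 209762_x_at, were not called and shared their sign with 208392_x_at in 3 of 8 exposures. The direction of SP110 is therefore uncertain, and the suffix x marks probe sets with probes that may bind other transcripts.

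**Figure D3:**
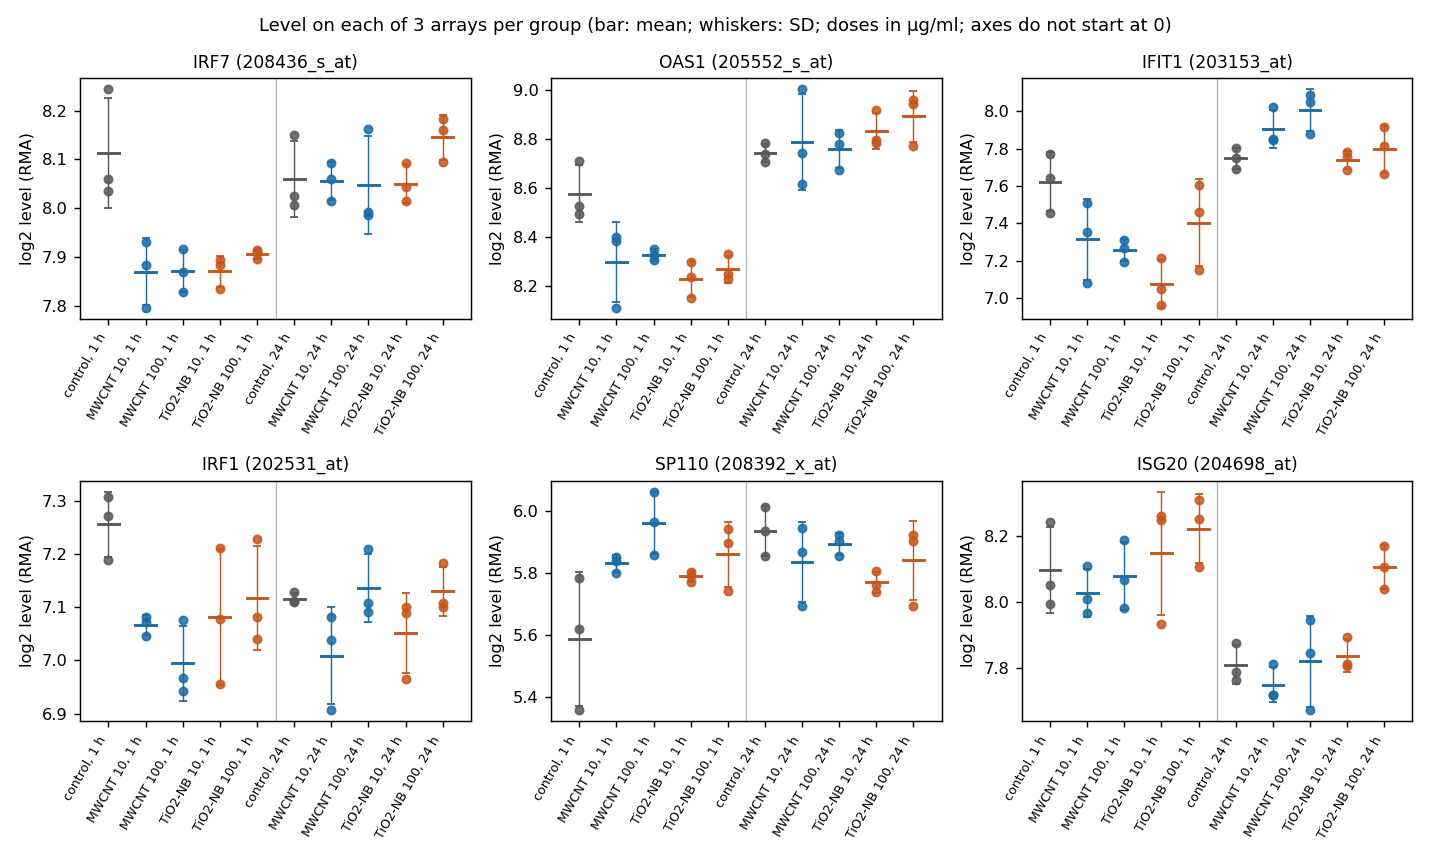
Log2 level (vertical axis, not from 0) of IRF7, OAS1, IFIT1, IRF1, SP110 and ISG20 on each of the 3 arrays of the 10 groups (points), with the mean (bar) and SD (whiskers). Grey is control, blue MWCNT and orange TiO2-NB, with 1 h at the left and 24 h at the right of each panel; for IRF7 and OAS1 all 12 exposed arrays at 1 h lie below the 3 controls of that time.

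The remaining members gave no call at 1 h. They include the membrane proteins IFITM1, IFITM2, IFITM3 and BST2, which hinder the entry or release of viruses, and RSAD2, which makes a chain-terminating nucleotide. ISG15, the ubiquitin-like modifier, UBE2L6, the enzyme that passes it on, and USP18, the protease that removes it, had no call in any of the 8 exposures. ISG15 had 9.79, 10.04 and 9.92 in the 1 h control and 9.63, 9.82 and 9.85 at 10 µg/ml MWCNT, which overlapped. The 5 members with the highest mean levels over the 30 arrays were ISG15 (9.87), IFI35 (9.40), BST2 (9.36), OAS1 (9.01) and IFITM1 (8.33), and of these only OAS1 was called at 1 h. In all, 8 genes were called in at least 1 exposure at 1 h (GBP2, IFIT1, IFIT5, IRF1, IRF7, OAS1, PSMB8 and SP110) and 28 in none. These 8 of 36 are 22.2% of the measured members, and 21.5% of all 11963 genes with a probe set of their own were called in at least 1 of the same 4 exposures. The F-test over the 5 groups at 1 h called 5 of 48 probe sets (10.4%, against 8.52% of all), those of IRF7, IFIT1 and OAS1 (205552_s_at) and the pair of SP110 named above. It called 0 without control replicate 2, 1 without control replicate 3, 3 without replicate 3 at 10 µg/ml TiO2-NB and 3 without replicate 2 at 100 µg/ml TiO2-NB.

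The calls at 1 h were also set beside the motifs in the promoter windows. Of the 18 measured members with the ISRE core, 3 were called at 1 h (IFIT1, IFIT5 and PSMB8), and of the 9 without it 3 were (OAS1, IRF1 and SP110). With the GAS, 4 of 11 were called (OAS1, IRF1, PSMB8 and SP110), and without it 2 of 16 (IFIT1 and IFIT5). For all genes the share called in any of these exposures is the 21.5% above. These counts are descriptions, and IRF7 and GBP2 are not in them. They rest on the letters as searched, so OAS1, with its shorter spacing, counts as without the ISRE core.

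After 24 h the exposed cells had nearly the levels of their control. At 10 and 100 µg/ml MWCNT and at 10 µg/ml TiO2-NB 0 of 48 member probe sets were called by limma, where 0.0045%, 0.009% and 0.0585% of all probe sets were called. Unadjusted, 3, 4 and 1 had a p under 0.05. At 100 µg/ml TiO2-NB 1 was called (2.08%) against 3.53% of all, and it rose, as did 0.729% of all, while 2.8% of all fell. The median changes of the members were 0.018, 0.051, -0.034 and 0.040, against 0.0013, 0.00030, 0.00040 and 0.011 over all probe sets. At 100 µg/ml MWCNT 36 of 48 changes were positive, and 8 had all exposed arrays above all controls (6.98% of all probe sets) and 1 wholly below (7.23%). At 10 µg/ml TiO2-NB 35 were negative, with 10 wholly below (6.89%) and 2 wholly above (7.36%). At 10 µg/ml MWCNT 28 were positive, with 4 wholly above (6.55%) and 2 wholly below (5.64%). At 100 µg/ml TiO2-NB 30 were positive, with 6 wholly above (13%) and 5 wholly below (9.48%).

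The one call at 24 h was for ISG20, an exonuclease that degrades single-stranded RNA. Its probe set 204698_at had 7.88, 7.79 and 7.76 in control and 8.04, 8.11 and 8.17 at 100 µg/ml TiO2-NB. The groups did not overlap, and it rose by 0.30 ± 0.083 (1.23-fold, adjusted p = 0.0457). The second ISG20 probe set, 33304_at, had 7.91, 7.72 and 7.73 in control and 7.95, 8.03 and 8.07 in that group, also without overlap. The call of 204698_at ended without any of the 3 control arrays or exposed replicates 2 or 3, with the 18S covariate and on the compared groups alone, with adjusted p between 0.00717 and 0.241.

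IFI27, a mitochondrial and nuclear membrane protein, is much used as a marker of interferon exposure. At 24 h it had the largest positive change in each exposure but 10 µg/ml TiO2-NB, and none passed the test. It had 6.48, 6.71 and 6.49 in control, 6.78, 7.0 and 6.84 at 10 µg/ml MWCNT, 7.19, 6.68 and 6.86 at 100 µg/ml MWCNT, and 7.01, 6.83 and 6.95 at 100 µg/ml TiO2-NB. The first and last of these groups lay above the controls and the middle one overlapped. The changes were 0.32 ± 0.12 (adjusted p = 0.9995), 0.35 ± 0.12 (adjusted p = 0.818) and 0.37. IFITM3, which blocks fusion of viruses in endosomes, was the one probe set called by the F-test over the 5 groups at 24 h (adjusted p = 0.0412, 2.08% of members against 3.14% of all). It had 7.51, 7.46 and 7.57 in control, 7.89, 7.59 and 7.65 at 100 µg/ml MWCNT, 7.36, 7.44 and 7.45 at 10 µg/ml TiO2-NB, and 7.58, 7.64 and 7.78 at 100 µg/ml TiO2-NB. Its change at 100 µg/ml MWCNT was 0.20 ± 0.066 (adjusted p = 0.778). The F-test count was 0 when any of 10 of the 15 arrays was left out, among them control replicates 1 and 2, all 3 arrays of each 10 µg/ml group and replicates 2 and 3 at 100 µg/ml TiO2-NB, and 3 without replicate 2 at 100 µg/ml MWCNT. The smallest p at 10 µg/ml TiO2-NB was that of OASL (205660_at), with a change of -0.28 ± 0.088 (adjusted p = 0.415).

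The intervals bound how large a change in array signal could have been missed at 1 h and at 24 h. The 95% intervals of all 48 probe sets lay within a 2-fold change in each of the 8 exposures, and those of 46, 46, 47 and 48 at 1 h and of 48, 47, 48 and 47 at 24 h within 1.5-fold. These intervals are for single probe sets and are not adjusted for their number. The standard error of a change was 0.083 at the median member, from 0.0468 (IFI35) to 0.146 (IFI6).

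Dose and particle type gave no called difference among the members. Between 100 and 10 µg/ml 0 of 48 were called by limma for each particle at each time, where 0%, 0%, 0% and 1.83% of all probe sets were called, the last for TiO2-NB at 24 h. Unadjusted, 4 and 6 at 1 h and 3 and 5 at 24 h had a p under 0.05, for MWCNT and TiO2-NB in turn. The nearest were IFITM3 for TiO2-NB at 24 h, with a difference of 0.25 ± 0.066 (adjusted p = 0.0535), IFI27 with 0.40 ± 0.12 (adjusted p = 0.131) and ISG20 with 0.27 ± 0.083 (adjusted p = 0.139). Without replicate 1 of the 100 µg/ml group 1 member was called there. Between MWCNT and TiO2-NB 0 were called at any dose and time (0.0675% and 0% of all at 1 h for 10 and 100 µg/ml, and 0.0315% and 2.88% at 24 h), with 6, 10, 4 and 4 at an unadjusted p under 0.05. At 100 µg/ml and 1 h 40 of 48 levels were lower with MWCNT, by a median of -0.079 against -0.0011 over all probe sets. MX1, an antiviral GTPase, had 6.13, 5.98 and 5.95 with MWCNT and 6.26, 6.25 and 6.76 with TiO2-NB there, without overlap, a difference of -0.40 ± 0.12 that did not pass (adjusted p = 0.325). At 24 h and 100 µg/ml IFIT3 had 8.03, 7.83 and 7.91 with MWCNT and 7.64, 7.74 and 7.59 with TiO2-NB, without overlap, a difference of 0.26 ± 0.074 (adjusted p = 0.0533). In that comparison 1 member was called without replicate 1 and without replicate 2 of the MWCNT group.

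More members were called between the 2 control times than in any exposure, as were more of all probe sets. In the unexposed cells 9 of 48 probe sets differed between 24 h and 1 h (18.8%), as did 18.1% of all. Of these 4 rose (7.22% of all rose) and 5 fell (10.9% of all fell). IFIT5 fell most, from 6.35, 6.37 and 6.70 to 5.79, 5.72 and 6.10 in probe set 203595_s_at and from 5.88, 5.88 and 6.07 to 5.49, 5.64 and 5.40 in 203596_s_at. Neither pair of groups overlapped. The falls were by 0.60 ± 0.099 (adjusted p = 9.64e-05) and by 0.43 ± 0.082 (adjusted p = 4.53e-04), and both calls held under every alternative run. IFIT3, a partner of IFIT1, moved the other way, from 7.58, 7.54 and 7.43 to 7.81, 7.86 and 7.75. It rose by 0.29 ± 0.074 (adjusted p = 0.00659), and this call too held under every alternative run.

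The other members that changed between the control times did so by less than IFIT5. ISG20 (204698_at) fell by 0.29 ± 0.083 (adjusted p = 0.0165), from 7.99, 8.24 and 8.05 to 7.88, 7.79 and 7.76. IFI35, which binds NMI in the cytoplasm, fell by 0.18 ± 0.047 (adjusted p = 0.00811), from 9.54, 9.48 and 9.54 to 9.35, 9.39 and 9.28. PSMB8 was the fifth called fall. OAS2 (204972_at) rose by 0.38 ± 0.12 (adjusted p = 0.026), SP110 (208392_x_at) by 0.35 ± 0.083 (adjusted p = 0.00399) and OAS1 (202869_at) by 0.23 ± 0.077 (adjusted p = 0.0399). OAS2 went from 3.86, 3.93 and 4.01 to 4.29, 4.38 and 4.26, SP110 from 5.79, 5.36 and 5.62 to 5.94, 5.85 and 6.01, and OAS1 from 8.82, 9.13 and 8.98 to 9.27, 9.16 and 9.18. None of these 3 pairs of groups overlapped. The other SP110 probe sets were not called. The mean of 208012_x_at went from 6.91 to 6.96, that of 209761_s_at from 5.43 to 5.34 and that of 209762_x_at from 6.57 to 6.41. The direction of SP110 is therefore uncertain here too. The count of called member probe sets was 5 to 7 in place of 9 when each of the 6 control arrays was left out in turn. It was 5 without replicate 2 and 5 without replicate 3 of the 24 h control. The OAS2 call ended without replicates 1 or 2 of either control, the OAS1 call without replicates 1 or 3 of the 1 h control or any of the 24 h control, the ISG20 call without replicate 2 of either control or replicate 3 at 24 h, and the IFI35 call without replicate 3 at 24 h.

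**Figure D4:**
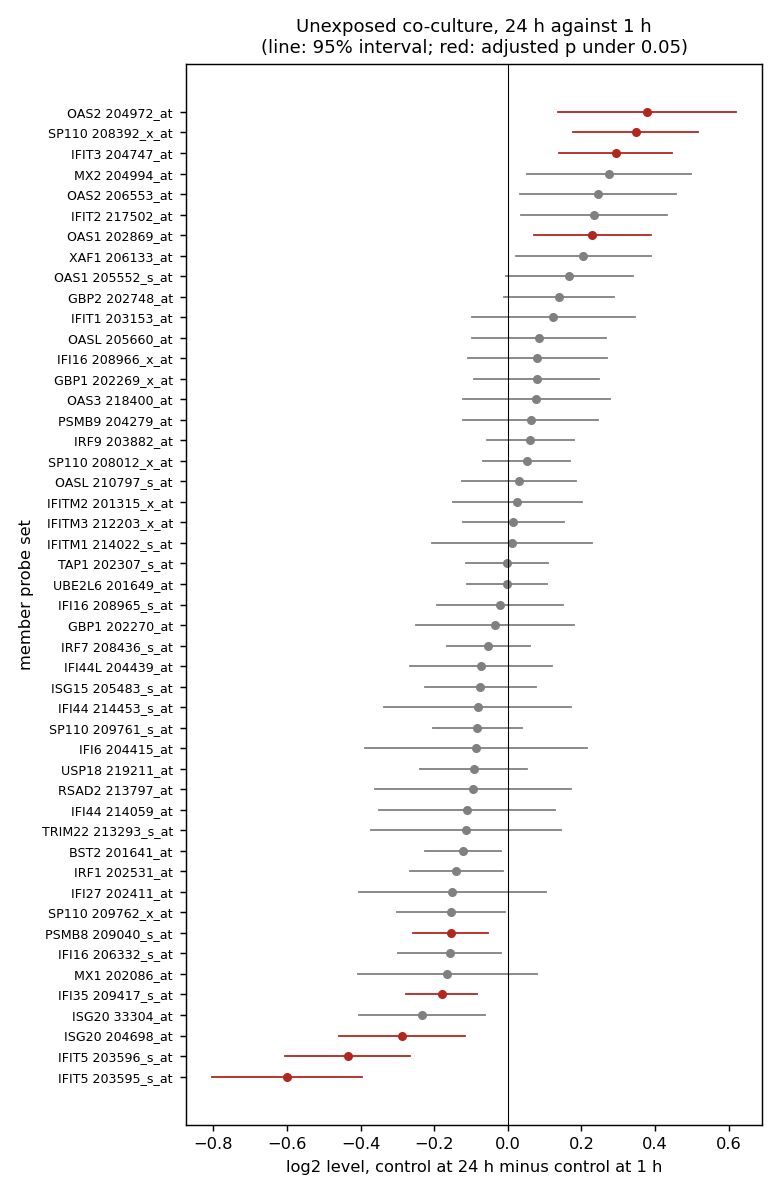
Log2 level in the 24 h control minus that in the 1 h control (horizontal axis) for the 48 interferon response probe sets, with the 95% interval (line). Red marks the 9 with an adjusted p under 0.05, of which 4 rose and 5 fell; IFIT5 lies lowest at -0.60 and OAS2 highest at 0.38.

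A few members were called for a different effect at 1 h and at 24 h, at shares near those of all probe sets. The test of the difference (the effect at 24 h minus that at 1 h) called 1 of 48 for 10 µg/ml MWCNT (2.08%, against 1.79% of all), 1 for 100 µg/ml MWCNT (2.08% against 2.71%), 2 for 10 µg/ml TiO2-NB (4.17% against 3.83%) and 2 for 100 µg/ml TiO2-NB (4.17% against 5.84%). The genes were IFI27, IFIT1, OAS1 and IRF7, and in each case the effect was higher at 24 h. For IFIT1 at 100 µg/ml MWCNT the effect went from -0.37 to 0.26, a difference of 0.63 ± 0.15 (adjusted p = 0.0256). For IFI27 at 10 µg/ml MWCNT it went from -0.36 to 0.32, a difference of 0.67 ± 0.17 (adjusted p = 0.0463). Each of the 6 calls ended without replicate 2 of the 1 h control, when the counts were 0, 0, 0 and 0 and the adjusted p lay between 0.0505 and 0.104. Without replicate 1 of the 1 h control the counts were 2, 2, 5 and 5.

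**Figure D5:**
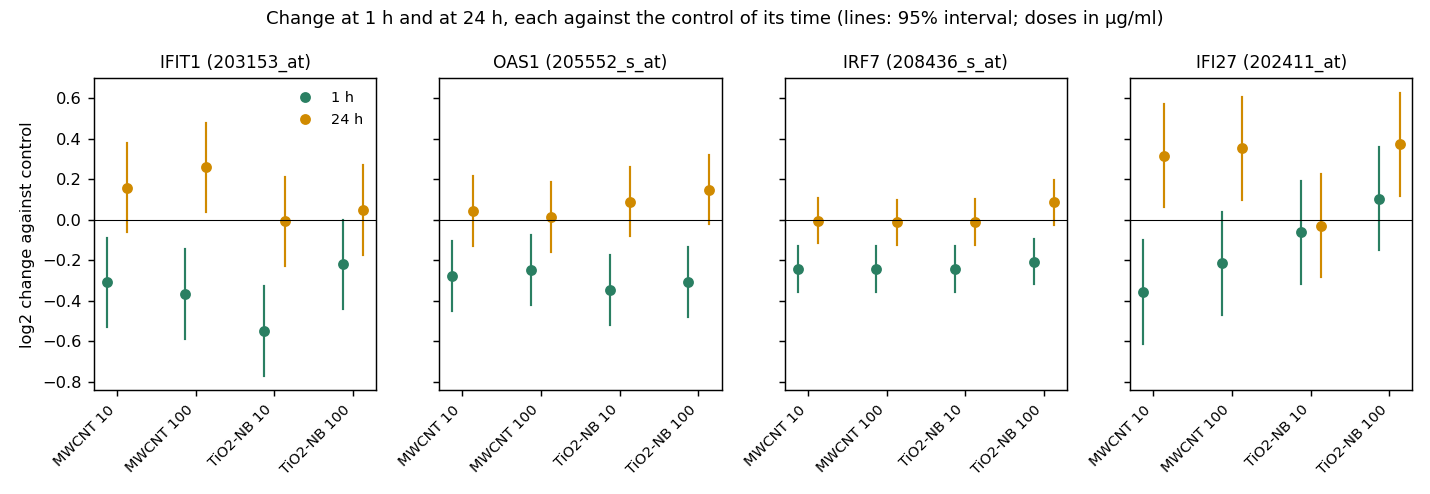
Log2 change against control (vertical axis) of IFIT1, OAS1, IRF7 and IFI27 at 1 h (green) and 24 h (orange) for the 4 exposures (doses in µg/ml), with the 95% interval (lines). For IFIT1, OAS1 and IRF7 all 4 changes at 1 h are negative and those at 24 h lie near or above 0, as for IFIT1 at 100 µg/ml MWCNT with -0.37 and 0.26.

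The other genes of the interferon pathway also had few calls at 1 h. Of 112 listed genes 81 were measured, by 150 probe sets, of which 3 rose and 5 fell at 10 µg/ml MWCNT, 3 rose and 4 fell at 100 µg/ml MWCNT, 2 rose and 10 fell at 10 µg/ml TiO2-NB, and 2 rose and 5 fell at 100 µg/ml TiO2-NB. The called shares were 5.33%, 4.67%, 8% and 4.67%, where 6.46%, 7.78%, 7.84% and 8.43% of all probe sets were called. RIGI, the sensor of viral RNA that is itself induced by interferon, fell by 0.34 ± 0.10 (adjusted p = 0.0406), by 0.35 ± 0.10 (adjusted p = 0.0297) and by 0.47 ± 0.10 (adjusted p = 0.00343) in the first 3 of these, and its change in the last was -0.30 ± 0.10 (adjusted p = 0.0663). SP100 (202864_s_at), a nuclear body protein, fell in all 4, by 0.22, 0.17, 0.24 and 0.25. Of its 4 other probe sets 1 fell at 10 µg/ml TiO2-NB, and the others were not called, with changes between -0.21 and 0.22. Of the receptor of interferon gamma, IFNGR1 (202727_s_at) rose by 0.14, 0.17, 0.12 and 0.16, and IFNGR2 fell by 0.14, 0.16, 0.17 and 0.15. IRF2, a repressor of interferon response genes, fell with TiO2-NB by 0.39 and by 0.36. Of SOCS3, an inhibitor of the receptors' kinases, 1 of 3 probe sets (214105_at) fell at 10 µg/ml MWCNT by 0.40, and the other 2 had -0.12 and -0.083 and were not called. Of SOCS1, a related inhibitor, 1 of 4 probe sets (210001_s_at) fell at 100 µg/ml MWCNT by 0.38, and the other 3, at -0.13 each, were not called. PTPN2, a phosphatase of the same pathway, rose by 0.69 and by 0.39 with MWCNT through probe set 204935_at and fell by 0.15 and by 0.18 with TiO2-NB through 213136_at, so its direction is uncertain. Of the 32 probe sets of MHC class I and its processing genes 0 were called in any exposure at 1 h.

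At 24 h 4 of the 150 pathway probe sets rose and 6 fell at 100 µg/ml TiO2-NB (6.67% called, against 3.53% of all), and 140 were not called. In that exposure 0.729% of all rose and 2.8% fell. By limma 0 of 150 were called in the other 3 exposures. Of TRIM14, an adaptor of antiviral signalling, 1 of 4 probe sets (203147_s_at) fell, by 0.98 ± 0.11 (1.97-fold, adjusted p = 1.23e-06). The other 3 were not called, with changes of 0.089 (203148_s_at), -0.33 and 0.12, so the direction of TRIM14 is uncertain. Of IFNAR2, a chain of the type I receptor, probe set 204786_s_at fell by 0.60 ± 0.069 (adjusted p = 2.53e-06) and 204785_x_at, with a change of 0.081, was not called, so its direction is uncertain too. STAT3, a transcription factor of cytokine receptors, fell by 0.76 ± 0.091 and by 0.55 ± 0.09 in 2 probe sets. Between the control times 8 of 150 rose and 9 fell (11.3% called, against 18.1% of all). N4BP1, an antiviral ribonuclease, rose by 0.40 in probe set 32069_at and by 0.27 in 204601_at, with its other 2 not called, and PSMB10, an immunoproteasome subunit, fell by 0.34.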

How the data were processed

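RNA of the co-culture was measured on 30 Affymetrix arrays in 10 groups of 3, from 3 µg of total RNA each, per the labels. The deposited table holds 1 log2 level for each probe set and array. The submitters' processing notes name RMA as the authors' method. The RMA version and the chip definition are not given here. RMA brings the arrays to a common distribution, so a change is relative to the other transcripts and a general shift in RNA amount would not be seen. Fewer cells and less RNA per cell cannot be told apart. Precision is limited by how many arrays each group has, since arrays carry no depth.

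The values were used as deposited. Of 22277 probe sets 62 controls were left out. Of the 22215 tested, 19064 carry 1 gene symbol, 1043 several and 2108 none, and only the first were named. A mean per group was fitted to all 30 arrays with limma 3.58.1 in R 4.3.3 (20 residual degrees of freedom and 3.68 from eBayes), with two-sided tests, a threshold of 0.05 and Benjamini-Hochberg adjustment within each comparison over all tested probe sets. Differences between particles are MWCNT minus TiO2-NB. The 18S levels were set side by side with exact permutation p of 0.1 or above, the smallest that 3 against 3 arrays allow. The fit was tested on simulated data.

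The members, lists and alternatives were chosen with earlier results of these data known. Described in full were, for each comparison with control, up to 6 called members that rose and 6 that fell, for the others up to 4 and 4, the 3 with the smallest p where none was called, and the 5 with the highest mean level; of other pathway genes, up to 4 called probe sets per comparison by smallest p. PSMB8 between the control times, RIGI with MWCNT, TCF4, the second ISG20 probe set and the other probe sets of the described pathway genes were named outside this rule, after their values were seen. All 36 measured members matched RefSeq by gene identifier. Promoters were searched on both strands with Python 3.11.15. The alternatives were a fit to the compared groups alone, the replicate number as a block, array weights, the removal of dim probe sets (the lowest 1 in 3 by mean level), the 18S level in the model, variances that follow the intensity and are robust, 1 probe set for each gene, quantile normalisation applied once more, and leaving out each array.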

Additional observations from a re-analysis of the deposited data

Results flagged for a closer look

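The effect of exposure was called as different between 1 h and 24 h, by a test of the difference itself, for 6 combinations of a member and an exposure. Called were 2.08%, 2.08%, 4.17% and 4.17% of members for MWCNT at 10 and 100 and TiO2-NB at 10 and 100 µg/ml. Of all probe sets 1.79%, 2.71%, 3.83% and 5.84% were called, so the member shares lie near the background. Each of the 6 calls ended without replicate 2 of the 1 h control, at limma adjusted p between 0.0505 and 0.104. The values are the effect at 24 h minus that at 1 h on the log2 scale, with the SE. They were 0.67 ± 0.17 for IFI27 at 10 µg/ml MWCNT (effects of -0.36 and 0.32), 0.63 ± 0.15 for IFIT1 at 100 µg/ml MWCNT (-0.37 and 0.26), and 0.54 ± 0.15 for IFIT1 at 10 µg/ml TiO2-NB (-0.55 and -0.0080, adjusted p = 0.0439). For OAS1 (205552_s_at) the value was 0.44 ± 0.12 at 10 µg/ml TiO2-NB (-0.35 and 0.089, adjusted p = 0.0358) and 0.46 ± 0.12 at 100 µg/ml TiO2-NB (-0.31 and 0.15, adjusted p = 0.0198). For IRF7 at 100 µg/ml TiO2-NB it was 0.29 ± 0.077 (-0.21 and 0.085, adjusted p = 0.0238). The 18S probe set also stood further above control at 1 h (by 0.80 to 1.51) than at 24 h (by 0.059 to 0.40), and its part in these differences was not tested.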

How the results depend on the processing

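The counts of called members depended on the processing. Over 66 described results and their alternatives, 0 reversed, 730 stayed on the same side of the threshold, 157 lost and 15 gained the call. These results were picked for a call or a small p and refitted on much the same arrays. A reversal was therefore unlikely from the start, and the absence of reversals does not show that the directions are stable. Results that were not called could not lose a call, and they are among the 730. On the compared groups alone the counts at 1 h went from 4, 4, 6 and 4 to 0, 0, 0 and 0, that for 100 µg/ml TiO2-NB at 24 h from 1 to 0, the F-test at 1 h from 5 to 0 and the time difference for 10 µg/ml MWCNT from 1 to 2. With the 18S covariate they were 0, 1 and 1 for both MWCNT doses and 100 µg/ml TiO2-NB at 1 h and 0 for 100 µg/ml TiO2-NB at 24 h. Without dim probe sets they were 8 and 8 for MWCNT at 1 h, 1 for the TiO2-NB dose and 2 for the particle at 100 µg/ml and 24 h, 5 and 6 for the time differences at 100 µg/ml of MWCNT and TiO2-NB, and 11 and 2 for the F-tests at 1 h and 24 h. With trend and robust variances they were 7 for 100 µg/ml MWCNT at 1 h, 1 and 2 for that dose and particle comparison, 3 for the 100 µg/ml MWCNT time difference, and 8 and 2 for the F-tests. Array weights gave 2 for 10 µg/ml MWCNT at 1 h, 2 for 100 µg/ml TiO2-NB at 24 h, 2 and 2 for the dose and particle comparisons, 4 for the 100 µg/ml TiO2-NB time difference and 2 for the F-test at 24 h. A second quantile normalisation gave 1 and 1 for the dose and particle comparisons, 0, 2 and 0 for the time differences of MWCNT at 10 and 100 and TiO2-NB at 10 µg/ml, and 2 for the F-test at 24 h, and 1 probe set per gene gave 1 and 1 for the TiO2-NB time differences. The causes were not tested.

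The replicate numbers are not stated to pair arrays: over 135 same-numbered pairs the correlation of deviations was -0.279 to 0.209, 18 pairs were over 0.1, and 12 of 30 arrays correlated best with their own number. The replicate block gave 2 in place of 4 for 10 µg/ml MWCNT at 1 h and 0 in place of 1 for its time difference, and moved no other count by over 1.5 times. Leaving out each array gave 0 to 5, 2 to 5, 1 to 8 and 1 to 6 members at 1 h, 0 to 1 for 100 µg/ml TiO2-NB and 0 to 0 for the others at 24 h. It gave 0 to 1 for the TiO2-NB dose and the 100 µg/ml particle comparison at 24 h, 0 to 0 for the other dose and particle comparisons, 5 to 7 for the control times, 0 to 2, 0 to 2, 0 to 5 and 0 to 5 for the time differences, and 0 to 7 and 0 to 3 for the F-tests at 1 h and 24 h.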

Other observations

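Several members best known from strong interferon responses were among the dim probe sets here. The 13 member probe sets in the lowest 1 in 3 by mean level (under 5.35) included every probe set of 9 genes: IFIT2, IFI16, IFI44, IFI44L, MX2, OAS2, RSAD2, TRIM22 and XAF1. None of the 13 was called in any of the 8 exposures, and 1 of them, OAS2 (204972_at), was called between the control times. RSAD2, for one, lay between 3.88 and 4.48 over the 30 arrays and IFI44L between 2.50 and 3.00.

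Where a gene had several probe sets, they did not always move together. Over the 8 exposures the pair of IFI44 shared its sign in 7 and the pair of ISG20 in 6, and the pairs of OAS2, OASL and GBP1 in 5, 5 and 4.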
